A study of Homo sapiens with 4 samples.

Results

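The comparison described here sets an untreated culture labelled KMS11 against an untreated culture labelled OPM2, both names of human multiple myeloma lines. Its members were chosen by label: the 2 control arrays of the 4 in the series, 1 per line, with the log2 signal of the OPM2 array subtracted from that of the KMS11-labelled array. The labels call both cultures myeloma cells and give no agent for either. The remaining 2 arrays, 1 per line, hold RNA of cells kept for 48 h with KPT-9274, a compound directed at NAMPT, an enzyme of NAD salvage, and at the kinase PAK4. They are set beside the untreated pair where a second look at the same gene is useful. Total RNA was isolated with a miRvana kit and labelled as sense-strand DNA for whole-transcript expression arrays. The labels do not speak of separate cultures of a line, and each value stands for 1 array.

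Plasma cells are the antibody-secreting end stage of the B lineage. They are known for the transcription factors IRF4, PRDM1 and XBP1, for a large secretory apparatus, and for the loss of most B cell surface proteins. Myeloma cells keep much of that program, and recurrent translocations in them raise genes such as FGFR3, NSD2 and MAF. Red cell, platelet and mast cell precursors use another set of regulators around GATA1, GATA2 and TAL1, which bind DNA in complexes with LMO2 and LDB1 and act on genes of haem synthesis, iron uptake, platelet adhesion and mast cell granules. KMS11 is known as a line in which both FGFR3 and MAF are overexpressed, and OPM2 as one with an FGFR3 and NSD2 translocation.

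Each array gave 65528 transcript clusters, which stood for 22393 named genes, and 16789 of them were tested once the dimmest 25% had been removed. A gene was taken as above background on an array where its log2 signal exceeded the 95th percentile of the olfactory receptor genes, which was 6.81 for untreated OPM2 and 6.45 for the untreated KMS11-labelled cells. On the treated arrays it was 7.65 for OPM2 and 6.56 for the KMS11-labelled cells. The difference reported for a gene is the plain one where both arrays lay above background. Where only 1 did, the other side was replaced by its background, which makes the difference a lower bound, marked "at least". It was set to 0 where neither did. Paired values below give the OPM2 control array first and the KMS11-labelled control array second. Because an array reads total RNA of a culture, fewer cells of a type and less RNA per cell cannot be told apart.

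Of the 16789 genes tested, 1660 (9.89%) were at least 2-fold higher on the KMS11-labelled array and 1528 (9.1%) on the OPM2 array. At 16-fold the counts were 139 and 102, and at 64-fold they were 27 and 21. Over all tested genes the median plain difference was -0.05. The low ends of the arrays were less alike, with 42.9% of named genes above background on the OPM2 array and 47.5% on the KMS11-labelled array. With 1 array on each side there is no test of this pair. In the treated pair, which the untreated comparison does not use, 1058 of the 1660 (63.7%) and 864 of the 1528 (56.5%) were again at least 2-fold apart in the same direction. That pair had 1618 (9.64%) and 1300 genes (7.74%) past 2-fold in all. Only 5 genes were at least 2-fold apart in the opposite one. Across the tested genes the untreated and treated differences had a Pearson correlation of 0.876, a description over genes that share the same 2 lines. A limma model over all 4 arrays, with line and agent as terms, called 1808 genes (10.8%) at an adjusted p below 0.05 as higher in the KMS11-labelled line and 1391 (8.29%) as higher in OPM2. It includes the untreated arrays themselves, and it tests the line difference averaged over both states.

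Among the 15 genes furthest above OPM2 on the KMS11-labelled array, MS4A3, a membrane protein of basophil and granulocyte precursors, read 5.12 and 16.14. That is at least 644-fold. The erythroid, megakaryocyte and mast cell regulator GATA1 read 5.24 and 15.9, at least 545-fold, and the succinate receptor SUCNR1 read 4.81 and 15.33. All 3 were under background on the OPM2 array and above 15 on the KMS11-labelled one. HDC, which forms histamine, read 5.36 and 15.02, and HPGDS, which makes prostaglandin D2 in mast cells and megakaryocytes, 4.67 and 14.3. The red cell membrane protein RHAG read 5.51 and 14.37. The same set held CSF2RB, the shared signalling chain of the receptors for IL-3, IL-5 and GM-CSF, at 6.26 and 14.65, and PTPRC, the leukocyte phosphatase CD45, at 5.6 and 14.17. Its other members were GTSF1, a small RNA pathway protein of germ cells, the adaptor SAMSN1, the purine transporter SLC43A3, the imprinted gene DLK1, the interferon-induced gene IFITM2, the arrestin ARRB1 and the retinal-oxidising enzyme ALDH1A1. Their bounded differences ran from 7.23 (ALDH1A1) to 8.08 (GTSF1). IFITM2 was the exception in being above background on both arrays, at 7.25 and 14.55.

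On the OPM2 side, PEG10, an imprinted gene derived from a retrotransposon, read 14.02 and 5.64 and was at least 190-fold higher. IRF4, on which plasma cells depend, read 14.26 and 6.75, a 182-fold difference with both arrays above background. Spermine synthase (SMS) read 13.62 and 6.37. JCHAIN, the joining chain of polymeric antibodies, read 16.99 and 9.94, and ITGB7, an integrin chain, 15.57 and 8.63. Both stayed above background on the KMS11-labelled array. PRDM1, the repressor that installs the plasma cell state, read 12.47 and 5.99. The other members were the lysosomal reductase IFI30, the amyloid precursor APP, the G protein regulator RGS1, the zinc finger gene ZBTB38, the coactivator EYA1, the guanylate cyclase subunit GUCY1A1, the peptidase-family gene PM20D2, the kinase CDK14 and the cytohesin partner CYTIP. They were higher on the OPM2 array by 6.02 (CDK14, CYTIP) to 7.14 (IFI30). All 30 genes had the same direction in the treated pair.

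**Figure D1:**
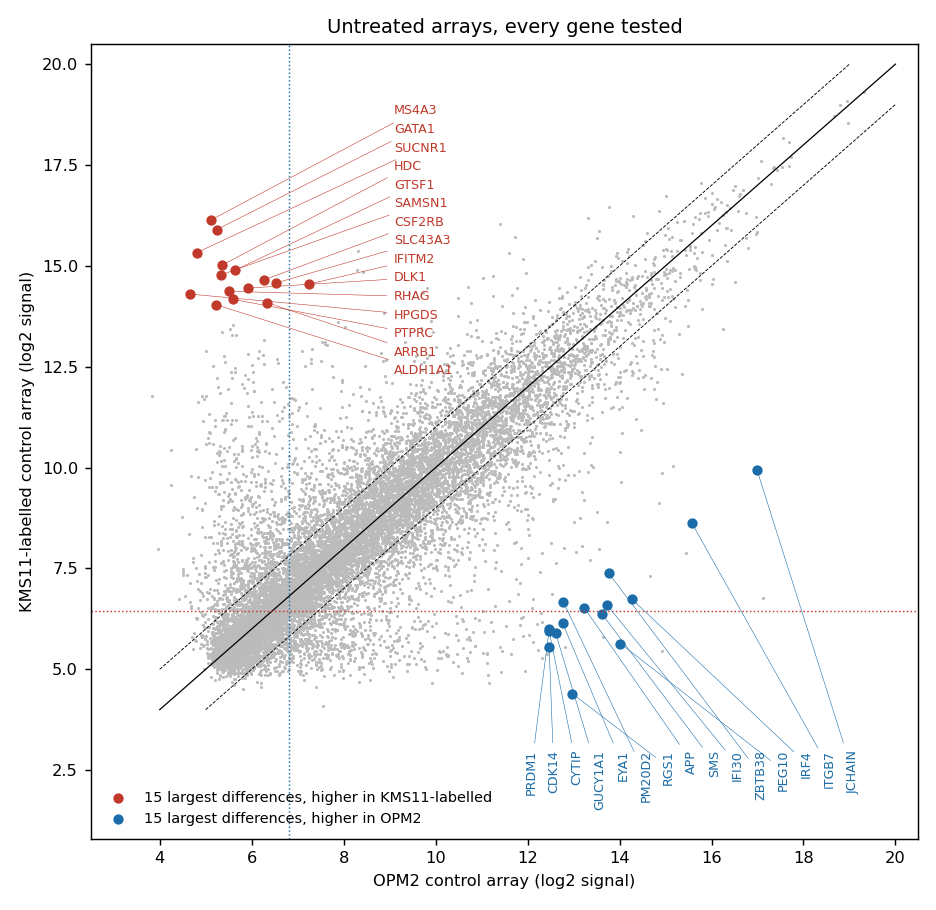
Log2 signal of the 16789 tested genes on the OPM2 control array (x axis) and the KMS11-labelled control array (y axis), 1 point per gene, with equality (solid) and 2-fold difference (dashed) lines and the background of each array (dotted). The 15 genes with the largest bounded difference each way are coloured and named; GATA1 and MS4A3 lie at the top left, with OPM2 signals under background, and JCHAIN, IRF4 and ITGB7 at the lower right.

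The lineage transcription factors separated along those lines. All 16 listed erythroid, megakaryocyte and mast cell factors were tested, and 13 were at least 2-fold higher on the KMS11-labelled array, against 1 lower, with a median plain difference of 2.59 beside -0.05 over all tested genes. The limma contrast also counted 13 higher and 1 lower. GATA2, the partner of GATA1 in precursors and mast cells, read 5.48 and 11.94, a difference of at least 5.13 (limma adjusted p = 0.00783). FLI1, an ETS factor of megakaryocytes, read 8.81 and 12.85 with both arrays above background. GATA1 itself had an adjusted p of 0.00370 in limma. TAL1, which nucleates the blood factor complex, read 5.63 and 9.38, its adaptor LMO2 5.8 and 9.07, and the bridging protein LDB1 13.56 and 15.86. LDB1 was bright on both arrays and 2.30 apart, while TAL1 and LMO2 were above background on the KMS11-labelled array alone. GFI1B, a repressor needed for red cells and platelets, read 6.2 and 9.55, NFE2, a platelet and globin gene activator, 5.77 and 9.19, and KLF1, the activator of adult globin genes, 7.47 and 9.11. The TAL1 relative LYL1, the corepressor CBFA2T3 and the homeobox genes HHEX and MEIS1 were each higher by 1.14 to 1.84. ZFPM1, the GATA1 cofactor FOG1, was above background on the KMS11-labelled array alone at 7.38, with a bounded difference of 0.57. MITF, which mast cells and pigment cells use, ran the other way at 8.28 and 7.03. ERG, an ETS factor of stem cells, was under background on both arrays.

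In the treated pair 7 of those 13 genes were again at least 2-fold higher. The treated OPM2 background of 7.65 bounds the others: TAL1 read 8.25 and LMO2 7.95 on the treated KMS11-labelled array, which leaves 0.60 and 0.30. NFE2 at 8.0 and HHEX at 7.95 were left with 0.35 and 0.30 in the same way, LYL1 with 0.50 and CBFA2T3 with 0.57. All 6 lay under the OPM2 background on the treated OPM2 array.

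Of 19 measured B cell and plasma cell factors 16 were tested, 6 were at least 2-fold lower on the KMS11-labelled array and 1 was higher, with a median plain difference of -0.91. The 6 were IRF4 and PRDM1, given above, with IKZF3, MAF, POU2AF1 and TCF3. IKZF3, the lymphoid zinc finger protein Aiolos, read 14.86 and 9.13, and MAF, a leucine zipper factor raised by a myeloma translocation, read 12.11 and 5.68. POU2AF1, the coactivator of octamer-binding proteins in B cells, read 10.47 and 5.39. MAF and POU2AF1 were under background on the KMS11-labelled array and IKZF3 was well above it. The E protein TCF3 read 10.98 and 9.78, but 9.75 and 9.77 in the treated pair. XBP1, the factor that expands the secretory apparatus, read 12.39 and 11.49, within 2-fold (limma adjusted p = 0.0681). IKZF1 (Ikaros) at 10.02 and 9.79 and ETS1 at 10.92 and 10.3 were also within 2-fold. PAX5, EBF1 and BCL6, which define earlier B cells, were under background on both arrays. MEF2C, a factor of B cells, myeloid cells and megakaryocytes, read 8.56 and 11.37 and was the 1 gene of the list that was higher.

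Few myeloid factors differed, and limma counted 2 higher and 0 lower. Of 12 measured and 10 tested, MYB, a progenitor factor, was the only one at least 2-fold apart by bounded difference, at 11.86 and 13.31. That count is near the 9.89% of all tested genes that were higher. SPI1 (PU.1), the main regulator of monocytes and granulocytes, read 5.98 and 7.38. Its difference was at least 0.57, with a plain one of 1.40 (limma adjusted p = 0.0303). CEBPA, needed for granulocytes, was near background on both arrays at 7.49 and 7.08. CEBPB, CEBPD, CEBPE and IRF5 were under background on both. Among the HOX partners, PBX3 read 11.3 and 7.52 and MEIS2 7.35 and 10.92 with both above background on both arrays. Most HOXA genes were not analysed here.

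**Figure D2:**
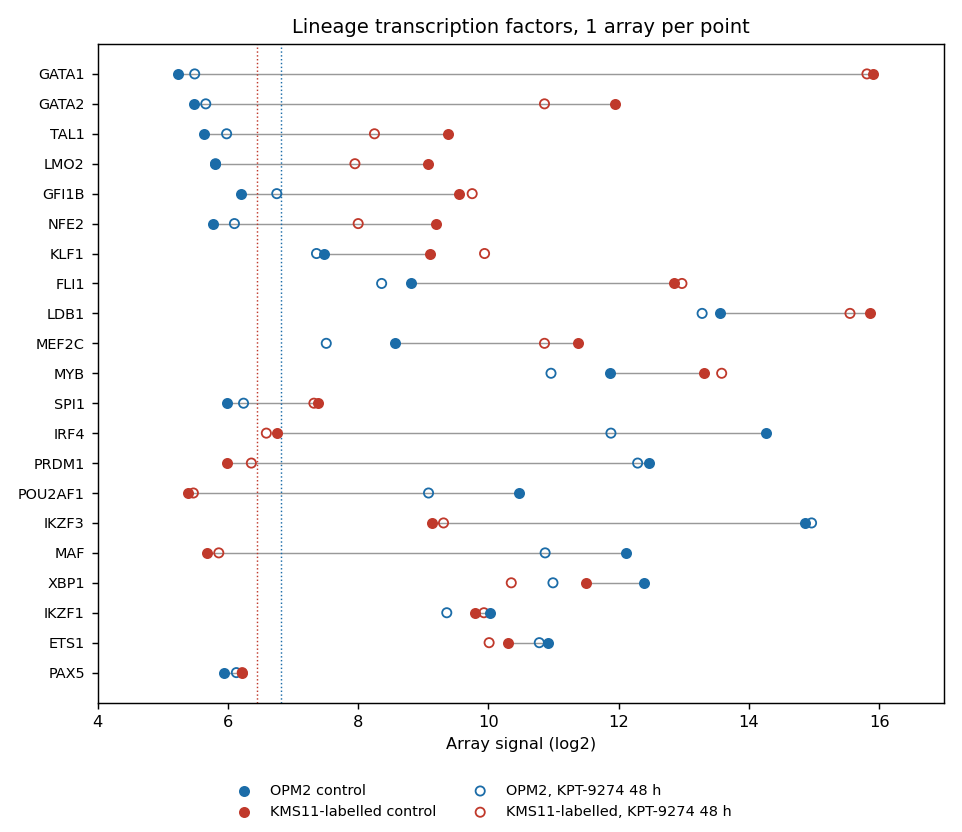
Log2 signal (x axis) of 21 lineage transcription factors on the 4 arrays, 1 point per array, with filled circles for untreated cells, open circles for cells after 48 h of KPT-9274, and dotted lines for the background of each control array. From GATA1 to MYB both KMS11-labelled points lie to the right of both OPM2 points, and from IRF4 to MAF they lie to the left, while IKZF1, ETS1 and PAX5 show little separation.

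The promoters of 4 genes from the opposite ends of the comparison are shown because they hold short motifs of the factors that differ. They are the 250 bases before the annotated start, from RefSeq on GRCh38.p14, written 5′ to 3′ on the gene's strand. Capitals mark AGATAA, the core of the sites bound by GATA factors, or its reverse TTATCT, in MS4A3, HPGDS and FCER1A, the last encoding the IgE-binding chain of the mast cell and basophil IgE receptor. In MS4A3 they also mark CAGATG or its reverse CATCTG, the E-box variant bound by TAL1 and its partners, and in JCHAIN they mark TCAGCA, the reverse of TGCTGA, a part of the site bound by MAF proteins. The windows are chr11:60056415-60056664 (plus strand) for MS4A3, chr4:94342837-94343086 (minus strand) for HPGDS, chr1:159302086-159302335 (plus strand) for FCER1A and chr4:70666509-70666758 (minus strand) for JCHAIN.
MS4A3: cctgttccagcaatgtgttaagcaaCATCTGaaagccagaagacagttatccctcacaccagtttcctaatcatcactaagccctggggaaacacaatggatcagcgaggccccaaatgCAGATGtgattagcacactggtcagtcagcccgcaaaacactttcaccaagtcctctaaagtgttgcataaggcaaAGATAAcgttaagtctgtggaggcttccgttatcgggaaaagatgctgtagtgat
HPGDS: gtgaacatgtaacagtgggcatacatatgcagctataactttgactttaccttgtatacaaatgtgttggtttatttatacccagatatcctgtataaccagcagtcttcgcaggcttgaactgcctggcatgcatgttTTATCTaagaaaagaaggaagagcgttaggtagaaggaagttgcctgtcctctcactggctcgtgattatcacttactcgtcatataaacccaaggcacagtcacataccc
FCER1A: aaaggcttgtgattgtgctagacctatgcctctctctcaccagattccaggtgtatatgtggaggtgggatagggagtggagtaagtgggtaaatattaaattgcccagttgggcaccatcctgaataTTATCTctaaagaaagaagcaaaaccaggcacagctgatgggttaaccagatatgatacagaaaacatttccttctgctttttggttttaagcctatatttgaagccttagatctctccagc
JCHAIN: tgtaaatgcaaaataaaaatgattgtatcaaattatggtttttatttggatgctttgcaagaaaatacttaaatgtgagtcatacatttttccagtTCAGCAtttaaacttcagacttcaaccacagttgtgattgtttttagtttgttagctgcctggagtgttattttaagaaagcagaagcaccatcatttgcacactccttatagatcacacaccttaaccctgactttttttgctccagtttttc

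Counted from the start, the first base of the AGATAA match lies at -55 in MS4A3, -111 in HPGDS and -122 in FCER1A. Read on both strands, AGATAA occurred in 18 of 109 promoters (16.51%) of genes at least 16-fold higher on the KMS11-labelled array, in 4 of 75 (5.33%) of those at least 16-fold higher on the OPM2 array, in 696 of 11840 (5.88%) of tested genes, and in 2558 of 27305 (9.37%) of all promoters in the table. Among genes at least 4-fold higher on the KMS11-labelled array it was in 42 of 462 (9.09%), and in 15 of 359 (4.18%) at least 4-fold higher on the OPM2 array. The first 4 sets differ in base composition as well, with a median A plus T content of 43.2%, 34.8%, 36.4% and 42.0%. Other motifs had larger shares there too: the octamer ATTTGCAT was in 5.5% of the first set and 1.41% of tested genes, and the core of the site of interferon regulatory factors, GAAA repeated after any 2 bases, in 6.42% and 2.39%. CAGATG was in 11.93% and 9.28%, TGCTGA in 15.6% of the first set, in 12 of 75 promoters of the OPM2 set and in 11.12% of tested genes, and CCACACCC, read by KLF1, in 1.83% and 2.85%. The 6 motifs were chosen with earlier results known, the part of base composition in these shares was not tested, and a match shows letters and not binding.

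Cell type markers of plasma cells were brighter on the OPM2 array, and those found on the KMS11-labelled array belonged to several blood lineages. Over all named genes, 42.9% were above background on the OPM2 array and 47.5% on the KMS11-labelled array. The marker counts above background that follow stand beside these shares. Of 15 measured plasma cell markers 9 were above background on the OPM2 array and 6 on the KMS11-labelled array, 8 were at least 2-fold lower on the latter and 1 higher, and the median plain difference of the 14 tested was -1.72. TNFRSF17, the plasma cell survival receptor BCMA, read 10.68 and 5.28 and was under background on the KMS11-labelled array. SEC11C, a signal peptidase subunit, read 13.35 and 7.7, MZB1, a chaperone of antibody assembly, 9.02 and 6.66, and CD38 7.71 and 6.15. JCHAIN belongs to this list too. All 4 were brighter on the OPM2 array. The folding proteins TXNDC5 and FKBP11, which many secretory cells use, read 15.29 and 13.32 and 9.45 and 8.03. SDC1, the syndecan CD138 by which myeloma cells are usually recognised, was under background on both arrays, at 6.75 and 6.08, and SLAMF7, FCRL5, CD27 and GPRC5D were under it as well. CD79A, a chain of the B cell antigen receptor, was higher on the KMS11-labelled array at 6.48 and 9.08. CD24, a surface protein of immature B cells and other precursors, read 6.26 and 13.17, while MS4A1 (CD20) and CD22 were under background on both. Of 5 measured immunoglobulin constant genes only IGLC7 was above background, at 7.27 and 7.54, and most of the other constant genes were not analysed here.

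Erythroid markers ran the other way. Of 18 measured, 13 were above background on the KMS11-labelled array and 4 on the OPM2 array, 9 were at least 2-fold higher, 0 lower, and the median plain difference was 1.92. TFRC, the transferrin receptor, read 13.31 and 16.19, bright on both arrays. CA1, the red cell carbonic anhydrase, read 5.84 and 11.97, ANK1, the ankyrin of the red cell skeleton, 6.01 and 11.37, and the Kell antigen partners XK and KEL 9.44 and 12.07 and 5.9 and 9.33. Of these, TFRC and XK were also above background on the OPM2 array. RHD, HEMGN and ERMAP were higher by 1.03 to 1.44. ALAS2, the erythroid enzyme that starts haem synthesis, was above background on the KMS11-labelled array alone at 7.61, with a bounded difference of 0.80. EPB42, a protein of the red cell membrane skeleton, was just above background on the KMS11-labelled array alone at 5.78 and 6.47. CA2, another carbonic anhydrase, was above background on the OPM2 array alone at 7.44 and 6.1, with a bounded difference of -0.99. EPOR, the erythropoietin receptor, read 6.04 and 5.97, SLC4A1 (band 3) 5.92 and 5.87, and HBB 5.34 and 5.43. These were under background on both arrays, as were all 5 measured globin genes. The alpha, gamma and epsilon globin genes and the glycophorins were not analysed here.

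Some megakaryocyte and mast cell markers were well above background on the same array. For both lists the count above background there was near the share over all named genes, 47.5%. On the OPM2 array it was under the share of 42.9%. Of 14 measured megakaryocyte and platelet markers 6 were above background on the KMS11-labelled array and 0 on the OPM2 array, and 5 were at least 2-fold higher. RGS18, a G protein regulator of platelets, read 5.91 and 12.82, the integrin chain ITGA2B (CD41) 6.57 and 12.6, and PLEK, the platelet kinase substrate pleckstrin, 6.03 and 12.38. SELP (P-selectin) read 5.28 and 9.35 and ITGB3 (CD61) 5.98 and 8.01. The platelet tubulin TUBB1 was above background on the KMS11-labelled array alone at 5.79 and 7.71. PF4 read 6.19 and 6.17 and GP9 5.41 and 6.02, both under background, with VWF and GP6. On the treated KMS11-labelled array GP9 at 6.74 and PPBP at 7.56 were above it. Of 15 measured basophil and mast cell markers 8 were above background on the KMS11-labelled array and 1 on the OPM2 array, and 7 were at least 2-fold higher, with a median plain difference of 2.73. Beside HDC and HPGDS they were FCER1A at 5.36 and 13.37, the stem cell factor receptor KIT at 5.07 and 10.88, the receptor gamma chain FCER1G at 6.08 and 10.58, the mast cell carboxypeptidase CPA3 at 5.09 and 9.74, and the amine transporter SLC18A2 at 5.82 and 8.55. None of these 7 was above background on the OPM2 array. The mast cell protease CMA1, the leukotriene synthase LTC4S, the IL-3 receptor chain IL3RA and ENPP3 were under background on both.

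Of 17 measured myeloid granule genes 11 were tested. Only LYZ (lysozyme), at 5.52 and 13.44, and MS4A3 were at least 2-fold higher, beside 9.89% over all tested genes. MPO read 5.55 and 5.57, and ELANE, PRTN3, AZU1 and CTSG were likewise under background. The proteoglycan SRGN was bright on both arrays, at 15.03 and 15.39. Of 7 measured eosinophil markers only PRG2, the granule major basic protein, was above background, at 5.46 and 10.41. Of 14 measured monocyte markers 4 were at least 2-fold higher: TYROBP, an adaptor of activating receptors, at 7.1 and 12.89, AIF1 at 7.19 and 11.61, ITGAM (CD11b) at 5.67 and 11.19 and CD68 at 6.85 and 8.21. These 4 were at least 2-fold higher in the treated pair too. CD14 and CSF1R, which define monocytes, were under background on both arrays, as were CD34, PROM1 and FLT3 of stem and progenitor cells.

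Lists of other tissues stayed near background. T cell receptor chains CD3D, CD3E, CD3G and CD247 were under it on both arrays, yet 2 T cell genes were higher on the OPM2 array, the costimulatory receptor CD28 at 12.03 and 5.84 and the thymocyte protein THEMIS at 11.12 and 5.37. No NK cell, stromal or globin gene was at least 2-fold apart. The epithelial adhesion protein EPCAM read 8.35 and 6.04. Of 6 endothelial markers PECAM1 (CD31), which platelets and leukocytes also carry, read 5.08 and 10.62 and the receptor TEK 5.18 and 8.67, while CDH5, KDR, CLDN5 and EMCN were under background. Summed over each list on the linear scale, the log2 level on the OPM2 and KMS11-labelled arrays was 17.49 and 13.65 for plasma cell markers and 13.55 and 16.74 for erythroid. It was 9.58 and 14.31 for megakaryocyte, and 9.44 and 16.08 for basophil and mast cell markers. Such sums follow the brightest members, as TFRC (13.31 and 16.19) in the erythroid list. In the plasma cell list these were JCHAIN on the OPM2 array (16.99) and TXNDC5 on the other (13.32). The OPM2 megakaryocyte sum holds only genes under background. Whether the KMS11-labelled culture was 1 cell type that carries several programs or a mixture was not tested.

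**Figure D3:**
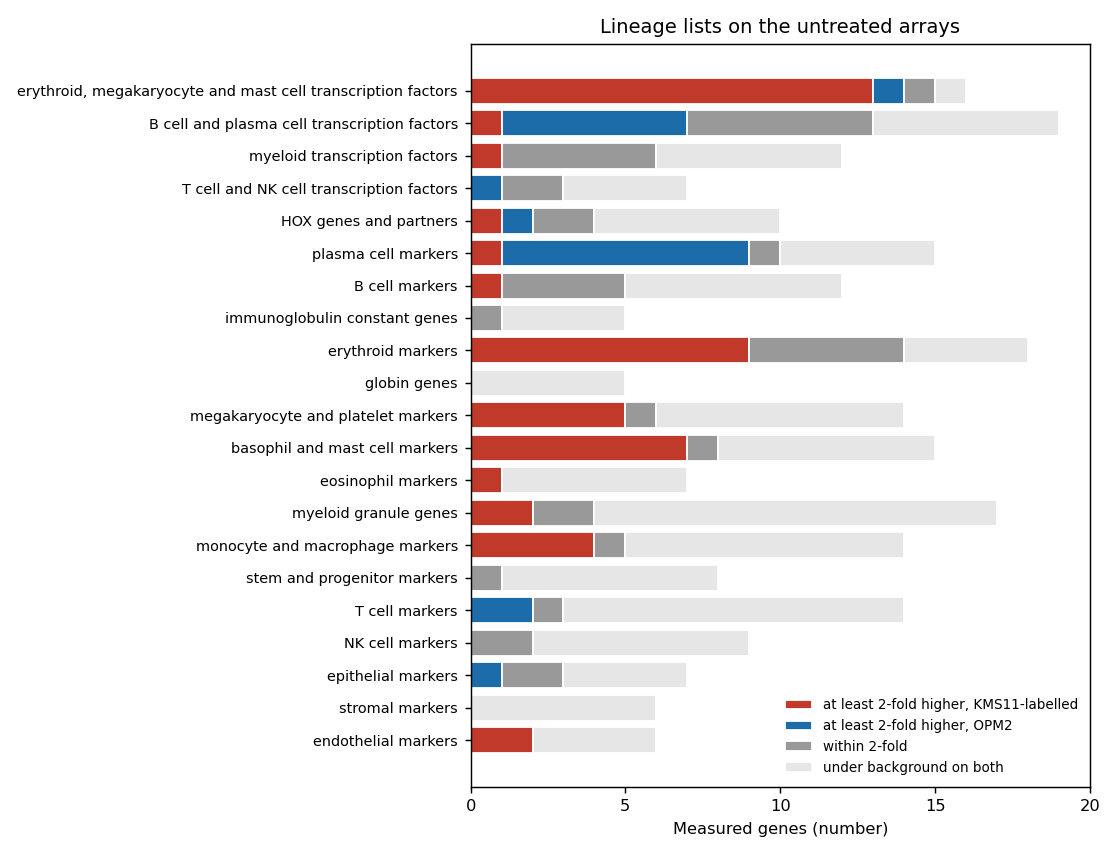
Number of measured genes (x axis) in each lineage list, split into those at least 2-fold higher on the KMS11-labelled control array (red), at least 2-fold higher on the OPM2 control array (blue), within 2-fold (dark grey) and under background on both (light grey). Red fills 13 of 16 erythroid, megakaryocyte and mast cell factors and 9 of 18 erythroid markers, and blue fills 8 of 15 plasma cell markers.

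Genes of the recurrent myeloma translocations bear on the label itself. Of 12 measured, 6 were at least 2-fold lower on the KMS11-labelled array and 1 higher. FGFR3, a receptor tyrosine kinase, read 13.55 and 7.99, and MAF 12.11 and 5.68. NSD2, the histone methyltransferase next to FGFR3, read 12.39 and 10.84 (limma adjusted p = 0.0624). The MAF targets ITGB7, given above, CCND2 at 14.69 and 12.23 and NUAK1 at 8.42 and 5.56 were lower on the KMS11-labelled array. CX3CR1, another MAF target, was above background on that array alone, at 6.4 and 7.14. Cyclin D3 (CCND3) read 6.49 and 8.07. CCND1 and MAFA were under background on both arrays. MAF under background and FGFR3 far below its OPM2 level, though above background, go against the label KMS11, and the RNA is called KMS11-labelled throughout. On the OPM2 array FGFR3 (13.55) and NSD2 (12.39) were bright, but so was MAF (12.11). FGFR3 with MAF is the pair named above for KMS11, so these genes do not settle the label OPM2. The identity of either culture was not tested.

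Among surface receptors, the 2 cultures differed in which cytokine chain was abundant. Of 26 measured cytokine receptors 20 were tested, 4 were at least 2-fold higher on the KMS11-labelled array and 4 lower. The shares over all tested genes were 9.89% higher and 9.1% lower, and every list tally below stands beside them. CSF2RB is given above, and its partner CSF2RA, the GM-CSF chain, read 6.35 and 7.9. IL6ST (gp130), the signal chain of the IL-6 receptor on which myeloma cells often depend, read 15.16 and 10.05 and was 5.11 higher on the OPM2 array (limma adjusted p = 0.00434). IL6R itself was near background on both, at 7.21 and 6.93, and IL2RG was bright on both, at 15.04 and 14.38. Interferon gamma receptor chain IFNGR1 read 8.29 and 10.0, and IL15RA, IL17RA and IL21R were higher on the OPM2 array by 1.04 to 1.76.

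Adhesion molecules were split as well, with 12 of 35 measured higher on the KMS11-labelled array and 7 lower. CD44, the hyaluronan receptor, read 6.2 and 11.63, and ITGA4, the alpha chain that pairs with ITGB1 or ITGB7, read 11.39 and 16.03. Of the partner chains, ITGB1 was within 2-fold at 12.27 and 12.67 and ITGB7 was higher on the OPM2 array. The leukocyte tetraspanins CD53 and CD37 read 5.38 and 11.18 and 6.28 and 10.4, while CD9 read 9.62 and 6.3. These 5 genes thus ran both ways, within 1 protein family in the case of the tetraspanins. On the OPM2 side stood ITGB8 at 10.23 and 5.38, N-cadherin (CDH2) at 10.09 and 5.44 and ITGB5 at 9.83 and 6.21. Of 29 measured chemokine and other G protein coupled receptors 17 were tested, 0 were at least 2-fold higher on the KMS11-labelled array and 3 lower. Under background on both arrays were 17 of the 29. Of 15 TNF receptor family members 14 were tested, 2 were higher and 4 lower. The shares over all tested genes were 9.89% and 9.1%. The death receptor FAS read 12.11 and 6.74, CXCR4, which holds plasma cells in marrow, 10.45 and 5.85, and P2RY8, a receptor of germinal centre B cells, 9.73 and 6.1. TNFRSF1A, a TNF receptor, was higher on the KMS11-labelled array at 7.12 and 9.43. Signalling lymphocyte receptors CD84 (5.42 and 10.96) and SLAMF6 (5.86 and 9.23) were higher there and their relative CD48 (8.59 and 6.35) lower.

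Antigen presentation genes were lower on the KMS11-labelled array. For class II, 6 of 14 measured genes were at least 2-fold lower and 1 higher, with a median plain difference of -1.22. The invariant chain CD74 read 12.5 and 8.14, HLA-DRA 16.25 and 13.43, and their transactivator CIITA 10.01 and 7.56. HLA-DRA remained bright on both arrays. The protease CTSS, which trims the invariant chain, was higher at 8.17 and 10.98. For class I, 7 of 15 were at least 2-fold lower and 0 higher, with HLA-C at 9.76 and 8.11, the peptide transporter chain TAP1 at 8.2 and 6.27 and B2M within 2-fold at 15.52 and 14.92. In the treated pair 0 class I genes were at least 2-fold lower and 1 was higher, and 3 of the 6 class II genes were lower again.

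Signalling genes close to immune receptors ran in 1 direction. Of 26 measured proximal tyrosine kinases and adaptors 13 were at least 2-fold higher on the KMS11-labelled array and 0 lower, with a median plain difference of 1.56, and 11 of the 13 were so in the treated pair. By limma 13 were higher and 0 lower. The kinase BTK read 5.57 and 13.29, its relative TEC 6.33 and 11.16, and SYK, which reads immune receptor tails, 5.7 and 9.51. All 3 were under background on the OPM2 array. Phospholipase PLCG2 read 6.99 and 10.08, the phosphatase PTPN6 (SHP-1) 5.62 and 10.16 and the exchange factor VAV3 6.77 and 10.02. LYN, the kinase upstream of them, was above background on both at 10.32 and 12.77. FYN, ABL2 and VAV2 were within 2-fold, and BLNK, the B cell linker, and CD72 were under background on both.

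Cytokine signal transducers favoured STAT5 on the KMS11-labelled array. STAT5A read 7.02 and 11.49, STAT5B 9.54 and 12.65, and JAK2, the kinase of the CSF2RB chain, 7.76 and 9.97. JAK1 and STAT3 were above background on both arrays and 1.13 and 1.31 higher there, and STAT6 read 12.03 and 9.98. The survival kinases PIM1 and PIM2 were exchanged, with PIM1 at 11.96 and 14.83 and PIM2 at 14.8 and 11.7. PIM2 kept that order in the treated pair, at 14.36 and 10.22, whereas PIM1 read 13.49 and 12.92. RAS pathway genes gave 4 higher and 4 lower of 22, of which 2 and 1 were repeated in the treated pair. The exchange factors RASGRP4, a mast cell gene, read 5.63 and 10.74 and SOS1 11.91 and 15.18, while RASGRP3 read 9.58 and 6.52. The ERK phosphatase DUSP6 read 9.88 and 7.13 untreated, but 6.93 and 6.0 treated, under background on both treated arrays. PI3K genes gave 4 higher and 3 lower of 15, beside 9.89% and 9.1% over all tested genes. Among them were the phosphatase INPP5D (SHIP1) at 9.7 and 12.43 and DEPTOR, an mTOR inhibitor abundant in some myelomas, at 11.79 and 9.07.

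Regulators of G proteins and the cytoskeleton gave 8 higher and 3 lower of 22. The guanine exchange factor DOCK8 read 5.93 and 12.2. RGS1 read 12.97 and 4.4 and RGS2 9.7 and 6.03, on the OPM2 side, while RGS18 stood on the other. Endoglin (ENG), a coreceptor of erythroid and endothelial cells, read 6.95 and 11.67 and TGFBR2 7.58 and 10.94, both TGF-beta receptor components. The NF-kB inhibitor TNFAIP3 read 12.62 and 7.64 untreated and 12.52 and 13.27 treated. By bounded difference, none of the 6 NF-kB genes at least 2-fold apart in the untreated pair was so in the treated pair. NFKBIZ read 6.53 and 8.2 treated, a plain difference of 1.67 that the treated OPM2 background bounds at 0.55. BIRC2 (1.37 untreated, 0.86 treated), MAP3K14 (-1.17 and -0.91) and NFKB2 (-1.92 and -0.3) kept their direction. IKBKE had plain differences of -1.21 and -0.09, and TNFAIP3 turned. Over the NF-kB list limma counted 2 higher and 1 lower. Of 15 BCL2 family genes 1 was at least 2-fold higher and 4 lower. BCL2 read 12.69 and 9.71 and MCL1, on which plasma cells depend, 13.4 and 12.05, and both were lower again in the treated pair. The 1 higher gene, BCL2L1, the BCL-xL gene of erythroid cells, read 7.97 and 9.33. In the treated pair it was within 2-fold, at 7.9 and 8.39. Cyclins, CDK inhibitors and related cell cycle genes were lower on the KMS11-labelled array, 10 of 18 by at least 2-fold and 0 higher, with CCNE2 at 11.14 and 9.1, CDK4 at 14.24 and 12.62 and MYC at 13.7 and 12.64. Of these 10, 5 were lower again in the treated pair. The D cyclins were not in this list but in the translocation list above. There CCND2 was lower on the KMS11-labelled array (14.69 and 12.23) and CCND3 at least 2-fold higher (6.49 and 8.07).

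**Figure D4:**
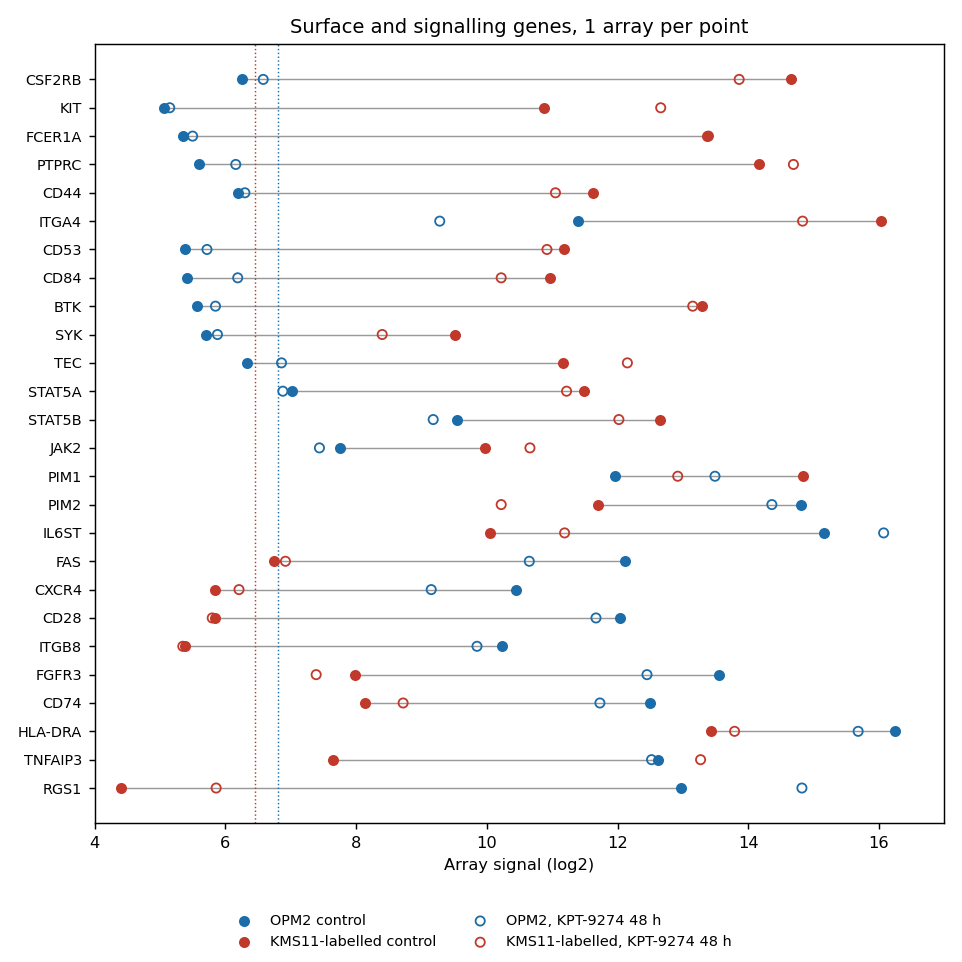
Log2 signal (x axis) of 26 surface and signalling genes on the 4 arrays, 1 point per array, with filled circles for untreated cells, open circles for cells after 48 h of KPT-9274, and dotted lines for the background of each control array. The open circles follow the filled ones of the same line for most genes; PIM1 and TNFAIP3 are exceptions, where the treated KMS11-labelled point moved toward or past the OPM2 points.

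Iron handling genes were mostly higher on the KMS11-labelled array. Of 13 measured iron handling genes 7 were at least 2-fold higher on the KMS11-labelled array and 1 lower, all 8 repeated in the treated pair, and the median plain difference was 1.30. The iron exporter SLC40A1 (ferroportin) read 8.43 and 14.84, the ferroxidase HEPH 5.26 and 11.99, and TFR2, an iron sensor of liver and erythroid cells, 7.11 and 9.69. SLC40A1 and TFR2 were above background on both arrays and HEPH on the KMS11-labelled one alone. Haem synthesis was not raised as a whole, with 3 of 15 higher and 2 lower, beside 9.89% and 9.1% over all tested genes. UROD read 7.83 and 10.9 and ALAS1 9.67 and 10.84. FECH, which inserts the iron, was within 2-fold at 8.42 and 8.67, and the transporter ABCB10 read 12.06 and 10.11.

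Genes of prostaglandin chemistry gave 4 higher and 1 lower of 14. The cyclooxygenase PTGS1, which platelets and mast cells use, read 5.56 and 11.07, the phospholipase PLA2G4A, which frees arachidonic acid, 8.4 and 11.4, and HPGD, which inactivates prostaglandins, 6.55 and 12.68. PTGES3 read 14.7 and 12.78. HPGDS, described above, acts after PTGS1 in the same chain of reactions.

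Glycolysis differed in single isoforms. Of 26 measured glycolysis genes 3 were higher and 6 lower, with a median plain difference of -0.16. The glucose transporter SLC2A3 read 7.31 and 12.95 and hexokinase HK1 7.42 and 10.89, while HK2 read 9.82 and 8.67 and the phosphofructokinases PFKM and PFKP 11.12 and 9.2 and 11.12 and 9.38. GAPDH at 16.58 and 16.36, PGK1 at 14.02 and 13.96 and ENO1 at 15.43 and 15.4 were nearly equal. The NADPH-forming enzymes were split: the mitochondrial isocitrate dehydrogenase IDH2 read 7.01 and 11.42, its cytosolic relative IDH1 7.97 and 10.51 and PGD 13.46 and 15.11. The malic enzymes ME1, at 11.83 and 6.1, and ME2, at 14.76 and 11.94, were higher on the OPM2 array. Antioxidant genes differed in kind as well, with catalase (CAT) at 8.9 and 12.26 against the quinone reductase NQO1 at 11.86 and 7.62 and thioredoxin (TXN) at 14.97 and 13.12.

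For amino acids, the branched-chain aminotransferase BCAT1 read 5.6 and 13.54 (limma adjusted p = 0.00599) and glutamine synthetase (GLUL) 8.48 and 11.65. Both were higher on the KMS11-labelled array. The neutral amino acid transporter SLC38A1 read 14.94 and 11.59. PSAT1, of serine synthesis, read 11.25 and 14.74, and asparagine synthetase (ASNS) 9.12 and 11.26. The cystine transporter SLC7A11 read 8.86 and 12.65 untreated but 9.07 and 8.26 treated, and PSAT1 and ASNS were within 2-fold in the treated pair, so none of these 3 was repeated at 2-fold. SLC7A5 and SHMT1 were within 2-fold on the untreated arrays. Of 14 measured genes of NAD synthesis, NAMPT read 10.02 and 7.71 and NMRK1, which starts from nicotinamide riboside, 9.0 and 6.53, while QPRT, which starts from quinolinate, read 7.87 and 10.76 and NADSYN1 8.54 and 9.57. All 4 kept their direction at 2-fold in the treated pair.

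Of 20 measured cholesterol genes 4 were at least 2-fold higher on the KMS11-labelled array and 2 lower, and of 18 fatty acid genes also 4 and 2. The shares over all tested genes were 9.89% and 9.1%. Among the cholesterol genes were HMGCS1, which makes HMG-CoA, at 9.81 and 12.72 and phosphomevalonate kinase (PMVK) at 12.0 and 8.83. In the treated pair the cholesterol tally was 12 higher and 1 lower. The fatty acid gene ACSL4, which activates arachidonic acid, read 10.71 and 14.47, and the elongase ELOVL6 and desaturase FADS2 read 9.72 and 11.96 and 7.25 and 9.75. The folding and secretion machinery of the endoplasmic reticulum was shared: all 31 measured genes were above background on both arrays, 23 were within 2-fold, 2 were higher and 6 lower on the KMS11-labelled array. CALR read 16.61 and 16.78, PDIA6 11.12 and 11.08 and HSPA5 15.76 and 14.82. The members that differed included the degradation factor HERPUD1 at 13.3 and 11.18 and the disulfide isomerase PDIA4 at 12.45 and 10.42.

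**Figure D5:**
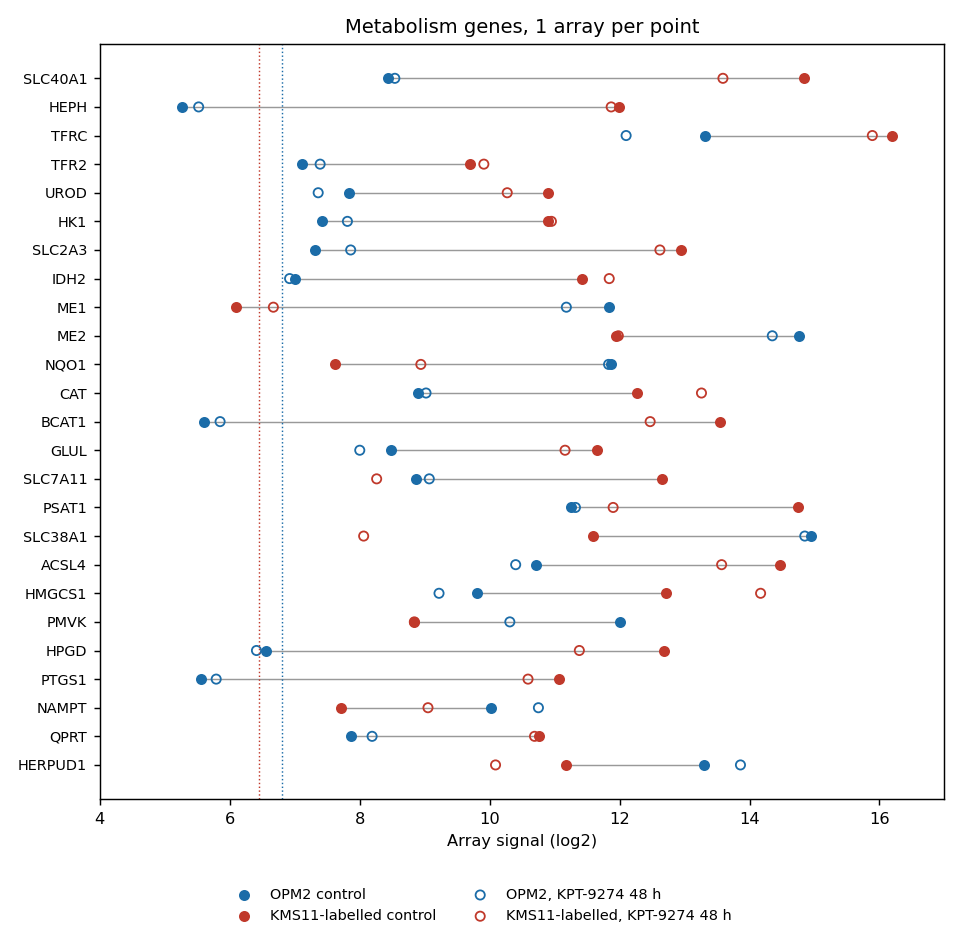
Log2 signal (x axis) of 25 metabolism genes on the 4 arrays, 1 point per array, with filled circles for untreated cells, open circles for cells after 48 h of KPT-9274, and dotted lines for the background of each control array. HEPH, BCAT1 and PTGS1 are under background in OPM2 and bright on the KMS11-labelled array, ME1 is the reverse, and SLC7A11 and PSAT1 are apart on the untreated arrays and close on the treated ones.

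MicroRNA genes of blood cells were measured as transcript clusters that do not tell a precursor from a mature molecule. Their mature sequences, from RefSeq on GRCh38.p14, are shown with the seed (bases 2 to 8) in capitals, since the seed decides which transcripts a microRNA pairs with. No seed is shared among them.
hsa-miR-223-3p: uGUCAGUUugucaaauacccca
hsa-miR-142-3p: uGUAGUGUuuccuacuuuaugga
hsa-miR-142-5p: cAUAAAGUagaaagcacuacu
hsa-miR-29a-3p: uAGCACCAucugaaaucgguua
hsa-miR-21-5p: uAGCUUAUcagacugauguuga
MIR223, a myeloid microRNA gene, read 4.68 and 9.79 on the untreated arrays and 4.94 and 5.59 on the treated ones. It was thus above background on the untreated KMS11-labelled array alone. MIR142, expressed across blood cells, read 12.03 and 10.32 untreated and 7.4 and 7.61 treated. MIR29A read 7.53 and 6.06 untreated and 7.26 and 5.55 treated, and MIR21 7.47 and 6.35 untreated and 6.38 and 6.01 treated. Of 21 measured microRNA genes 1 was at least 2-fold higher on the KMS11-labelled array and 3 lower. By bounded difference 0 of the 4 were so in the treated pair. For MIR29A the plain difference was -1.47 untreated and -1.71 treated, and the bounded one was 0 because both treated values lay under background, 7.65 for OPM2. The melanoma and leukaemia antigen PRAME read 6.75 and 11.99, while 18 of the 21 measured cancer-testis genes were under background on both arrays.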

How the data were processed

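The deposited table holds log2 array signals. Per the submitters' processing notes, the authors used the Transcriptome Analysis Console, while its summarization and normalization settings and the build were not given in the sources used here, so how they shaped low signals is unknown. The number of arrays limits the precision. Of 65528 clusters 22755 had 1 gene symbol, 1389 several and 41384 none here. Symbols were updated through GRCh38.p14 names, and the brightest cluster stood for a gene (345 genes had several). Values were used as deposited. The contrast used limma 3.58.1 in R 4.3.3 (line and agent, 1 residual and 2.79 prior degrees of freedom, two-sided, Benjamini-Hochberg). It was also run on simulated data drawn with the model's own assumptions and no effect of the agent. Such data cannot show that these assumptions hold for the 4 arrays. The 1 residual degree of freedom is how far the untreated and treated line differences of a gene disagree. P-values rest on that and on a variance pooled over genes, and do not measure the spread between cultures of a line. Genes under background on both arrays were given a difference of 0, not the difference of the 2 backgrounds. The 54 lists hold 1017 genes, of which 887 were measured and 756 passed the filter on low signal. Medians are over the latter. Members, lists, motifs and the background measure were chosen with earlier results of these data known. Named genes were the 15 largest differences each way among genes of known kind, members of transcription factor, marker and translocation lists, and, of other lists, up to 8 members at least 2-fold apart each way and 4 with the smallest difference. Promoters were the first entry for each gene. Alternatives changed scaling, filter, cluster rule, background, prior and model terms, or put the treated arrays in place of the untreated.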

Additional observations from a re-analysis of the deposited data

Results flagged for a closer look

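In 5 genes the untreated and the treated pair were at least 2-fold apart in opposite directions. The differences are 1 array against 1, and their change between the pairs was not tested. SLC38A2, a neutral amino acid transporter, was 1.18 higher on the KMS11-labelled array untreated and 1.90 lower treated (difference -1.90), with values of 14.16 and 15.34, then 16.44 and 14.54. The noncoding RNA gene NORAD had 1.12 and -1.17, and MIR548W 1.48 and -1.86. ZFP36, which promotes decay of inflammatory transcripts, had -1.11 and 1.68, and the syntaxin STX11 -1.28 and 1.16. Limma, which averages the pairs, gave adjusted p values of 0.782 (SLC38A2), 0.980 (NORAD), 0.896 (MIR548W), 0.811 (ZFP36) and 0.900 (STX11).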

How the results depend on the processing

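No pairing by replicate was possible because the labels give no replicate numbers that groups share. The agent term sets the lines against each other within each state. Without it limma called 1553 and 1147 genes. The untreated pair gave 1660 genes higher on the KMS11-labelled array and 1528 lower. Over the alternatives these counts ran from 1245 and 1227 (99th percentile background) to 2007 and 1832 (no background), and the limma counts of 1808 and 1391 ran from 1234 to 2522 and from 805 to 1793. The limma count higher in OPM2 fell to 805 when values under background were raised to the highest of the 4 backgrounds, a fit that tests 9014 genes. Median centring split the limma calls 2522 to 1193. With the 90th percentile background all 319 named genes kept direction and 2-fold call. Both were kept by 303 under quantile normalization, 305 under median centring, 315 after cyclic loess and 253 with the 99th percentile background. Under these settings the rest kept direction or were at 0, and none turned. With the treated arrays in place, 211 kept both, 101 kept direction or were at 0 but were no longer 2-fold apart, and 7 turned: FLVCR1 to 0.19, HLA-DMA to 0.33, TCF3 to 0.02, TNFAIP3 to 0.75, PIM1 to -0.57, SLC7A11 to -0.81 and SLC38A2 to -1.90. The cause was not tested, and the treated OPM2 background of 7.65 bounds many of these values.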

Other observations

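Neighbouring genes shared a pattern in several places. Measured protein-coding genes were taken in chromosome order, and those under background on both untreated arrays were skipped. Runs of at least 4 genes next to each other in that order, above background on 1 untreated array alone, were then counted. They numbered 14 for the KMS11-labelled array and 2 for OPM2. Skipped or unmeasured genes may lie between the members of a run, so a run is not an unbroken block. In all, 1727 genes were above background on the KMS11-labelled array alone and 698 on the OPM2 array alone. Since the background was 6.45 on the former and 6.81 on the latter, some genes in the 14 runs, such as ZNF324 (6.62 and 6.55), were not higher there. On chromosome 9 the OPM2-only run held 6 genes, KLHL9, MTAP, CDKN2A, CDKN2B, DMRTA1 and ELAVL2. MTAP, the methionine salvage enzyme, read 11.17 on the OPM2 array and 4.65 on the KMS11-labelled array, and the CDK inhibitor gene CDKN2A 8.34 and 6.15. The treated arrays gave 9.45 and 4.98 for MTAP. The other run, on chromosome 13, held EPSTI1, DNAJC15, ENOX1 and LACC1, with DNAJC15 at 9.8 and 5.0. Runs on the KMS11-labelled array included 4 MS4A genes on chromosome 11 (MS4A3, MS4A6A, MS4A4E, MS4A4A) and 11 genes around SIGLEC9 and SIGLEC12 on chromosome 19, SIGLEC12 reading 5.39 and 10.2. A run of 4 on chromosome 22 set CSF2RB beside NCF4, a phagocyte oxidase subunit at 6.17 and 12.89.

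By chromosome, over genes above background on both arrays, the median difference was -0.78 on chromosome 18 (133 genes) and -0.455 on chromosome 7 (450 genes). In the treated pair these medians were -0.825 and -0.485. On the other chromosomes listed the untreated medians lay between -0.17 and 0.21. 2 imprinted neighbour pairs were opposed: DLK1 and its neighbour MEG3 (5.98 and 11.03) were above background on the KMS11-labelled array alone, and PEG10 and its neighbour SGCE (10.68 and 5.74) on the OPM2 array alone.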
